A study of Homo sapiens with 16 samples.

Results

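The response of LNCaP cells to bicalutamide in the absence of androgen was measured by bulk RNA sequencing. LNCaP is a human prostate cancer line of luminal type whose growth depends on androgens, and its stock was clone FGC. The comparison rests on 4 of the 16 libraries of the series: the 2 libraries treated with bicalutamide and no androgen (BIC.VEH) and the 2 treated with neither (VEH). They were chosen by their labels and paired by the number 3 or 7 in their titles, which also marks biological replicate 1 or 2. All 8 groups of the series had first grown for 72 h with 5% fetal bovine serum and then for 48 h with 5% charcoal-stripped serum, which is poor in androgens. Treatment lasted another 48 h. BIC.VEH received 10 µM bicalutamide, and VEH received no drug and no androgen. The DHT group received 10 nM of the androgen dihydrotestosterone (DHT) and no antagonist, and gives the direction of the androgen response. ENZ.VEH and APA.VEH received 10 µM enzalutamide or apalutamide and no androgen, and BIC.DHT, ENZ.DHT and APA.DHT the respective drug with 10 nM DHT. The labels write ARN for apalutamide. Each group holds 2 libraries of 1 cell line. The labels do not say whether replicates were separate cultures, so p-values measure the spread between these libraries.

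Bicalutamide, enzalutamide and apalutamide are nonsteroidal drugs that compete with androgens for the ligand pocket of the androgen receptor, a transcription factor that moves to the nucleus and binds DNA when it carries an androgen. Enzalutamide and apalutamide share a thiohydantoin core, which bicalutamide lacks. In luminal prostate cells the active receptor induces the secreted proteases of the kallikrein family, among them KLK3, known in the clinic as prostate-specific antigen, and raises lipid synthesis and cell division. It also lowers a set of genes that are high in androgen-starved cells. Bicalutamide is known from the pharmacology of the receptor as an antagonist that can retain partial agonist activity, depending on the receptor and cell. The comparison therefore asks which genes differ from VEH as they do with DHT, and which do not.

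Levels are TPM, a measure of transcript abundance that is corrected for gene length and scaled to the same total in each library. Differences are on the log2(TPM + 1) scale, where a gene of low TPM changes by less than its fold. A difference was called when its adjusted p, from limma with the replicate number as a block and Benjamini-Hochberg adjustment over the 16636 genes tested, was below 0.05. Luminal markers (KRT8, KRT18, EPCAM, CDH1, FOLH1, HOXB13, FOXA1 and KLK3) stood between 24.0 and 989 TPM in all 4 libraries. The 3 basal markers were under 1 TPM throughout, as were 3 of 4 fibroblast markers, 2 of 3 endothelial and 2 of 3 leukocyte markers. The exceptions were COL1A1 (21.5 to 22.7 TPM in BIC.VEH and 25.9 to 32.6 TPM in VEH), VWF (up to 1.64 TPM) and CD68 (up to 6.43 TPM). Mitochondrial genes took 15.9% to 17.8% of the total in these libraries. ENZ.DHT and APA.DHT were the least alike between replicates, with 5.71% and 6.17% of genes more than 2-fold apart, against 2.72% in BIC.VEH and 2.45% in VEH.

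With bicalutamide alone, 3 genes passed the test, and all of them rose: KLK3, KLK4 and SLC45A3, each of which is induced by androgens. They were 0.018% of the genes tested, while DHT against VEH called 27.4%, 1762 genes higher (10.6%) and 2797 lower (16.8%). At an unadjusted p below 0.05, 539 genes passed with bicalutamide (3.24% of those tested), 242 higher (1.45%) and 297 lower (1.79%). That share is below the 0.05 that such a cut passes where no gene differs, so the count shows no broad response. KLK3 stood at 358 and 206 TPM in BIC.VEH against 53.0 and 24.0 TPM in VEH, and DHT gave 4102 and 2422 TPM. The groups did not overlap. KLK3 rose by 2.89 on the log2 scale (SE 0.32, n = 2 per group, adjusted p 0.035 in limma), by 2.73 in pair 1 and 3.05 in pair 2, and DHT raised it by 6.42. KLK4, a kallikrein protease encoded near KLK3, stood at 150 and 112 TPM against 42.0 and 22.1 TPM in VEH, and DHT gave 523 and 407 TPM. Its difference was 2.05 (SE 0.24, adjusted p 0.035 in limma). SLC45A3, a membrane transporter also known as prostein, stood at 40.0 and 52.1 TPM against 23.3 and 20.7 TPM, and at 133 and 159 TPM with DHT. Its difference was 1.02 (SE 0.12, adjusted p 0.035 in limma). KLK3 lies at chr19:50854915-50860764, KLK4 at chr19:50906351-50911395 and SLC45A3 at chr1:205657851-205680509 in GRCh38.p14. BIC.VEH differed from DHT in 21.5% of genes, and these levels stayed below those with DHT, by 3.53 for KLK3, 1.82 for KLK4 and 1.65 for SLC45A3 on the log2 scale (limma adjusted p 6e-05, 0.00051 and 1.7e-05). In bulk RNA, more cells that express a gene cannot be told apart from more RNA per cell.

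The 3 calls depend on the fit, and their sizes less so. No gene was called without the replicate block (194 at an unadjusted p below 0.05), after median-ratio scaling of the libraries (579), with a fit limited to the BIC.VEH and VEH libraries (1166), without BIC.VEH replicate 1 (349), without BIC.VEH replicate 2 (533) or without DHT replicate 1 (549). The adjusted p of KLK3 was 1.0 without the block and 0.064 after median-ratio scaling, and its difference stayed between 2.79 and 2.99 under every leave-one-out setting of BIC.VEH and VEH. With ENZ.DHT and APA.DHT left out, 12 genes were called, 11 higher and 1 lower. The 9 added by that choice were AC004079.5, C19orf48, EAF2, ELOVL5, HOMER2, KLK2, KLKP1, PTGFR and, lower, SNORA78.

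KLK2, the kallikrein whose gene lies beside KLK3 (chr19:50873439-50880567), differed by nearly as much as KLK3 but was not called. It stood at 36.2 and 33.7 TPM in BIC.VEH against 4.78 and 3.60 TPM in VEH, and DHT gave 494 and 485 TPM. Its difference was 2.80 (SE 0.41, adjusted p 0.13 in limma; 0.00032 with ENZ.DHT and APA.DHT left out). KLK2 and KLK3 are close copies, and reads common to both were divided between them by a model. The pseudogene KLKP1 stood at 6.39 and 5.42 TPM against 2.06 and 1.00 TPM, a difference of 1.48. The promoters of the pair are shown because both genes differed most among androgen targets. They are the 250 bases before each RefSeq start, on the plus strand of GRCh38.p14, at chr19:50854665-50854914 for KLK3 and chr19:50873189-50873438 for KLK2. Capitals mark a 14-base run that both contain and that was chosen after the sequences were seen.
KLK3: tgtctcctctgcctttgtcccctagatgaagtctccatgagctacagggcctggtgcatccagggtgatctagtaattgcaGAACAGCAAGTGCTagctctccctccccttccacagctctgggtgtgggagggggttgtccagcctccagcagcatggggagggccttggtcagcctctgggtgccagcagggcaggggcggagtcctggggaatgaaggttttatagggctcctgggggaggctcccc
KLK2: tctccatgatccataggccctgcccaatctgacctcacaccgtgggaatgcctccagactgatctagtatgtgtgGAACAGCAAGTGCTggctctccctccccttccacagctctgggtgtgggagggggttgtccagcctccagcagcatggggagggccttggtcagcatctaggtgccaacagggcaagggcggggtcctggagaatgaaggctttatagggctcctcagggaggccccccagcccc
The run starts 169 bases before the start of KLK3 and 175 bases before that of KLK2. It was found in 2 of 35116 RefSeq promoters of 300 bases, those of KLK3 and KLK2, from which it was taken. The 2 windows are identical at 207 of 259 aligned columns (79.9%). The androgen receptor binds paired 6-base motifs, each written here as AGAACA or, on the other strand, TGTTCT. This motif starts 170 bases before the start of KLK3, where it overlaps the shared run. Neither exact form is in the KLK2 window, where the base before the run is g and not a. Only exact matches were counted, so this does not show that the KLK2 window lacks a receptor site. An exact match was in 14.8% of all promoters and in 9.81% of promoters of genes tested. For androgen-induced genes the share was 14.6% (6 of 41 promoters, of 25 genes). A match is a description and does not show binding.

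**Figure D1:**
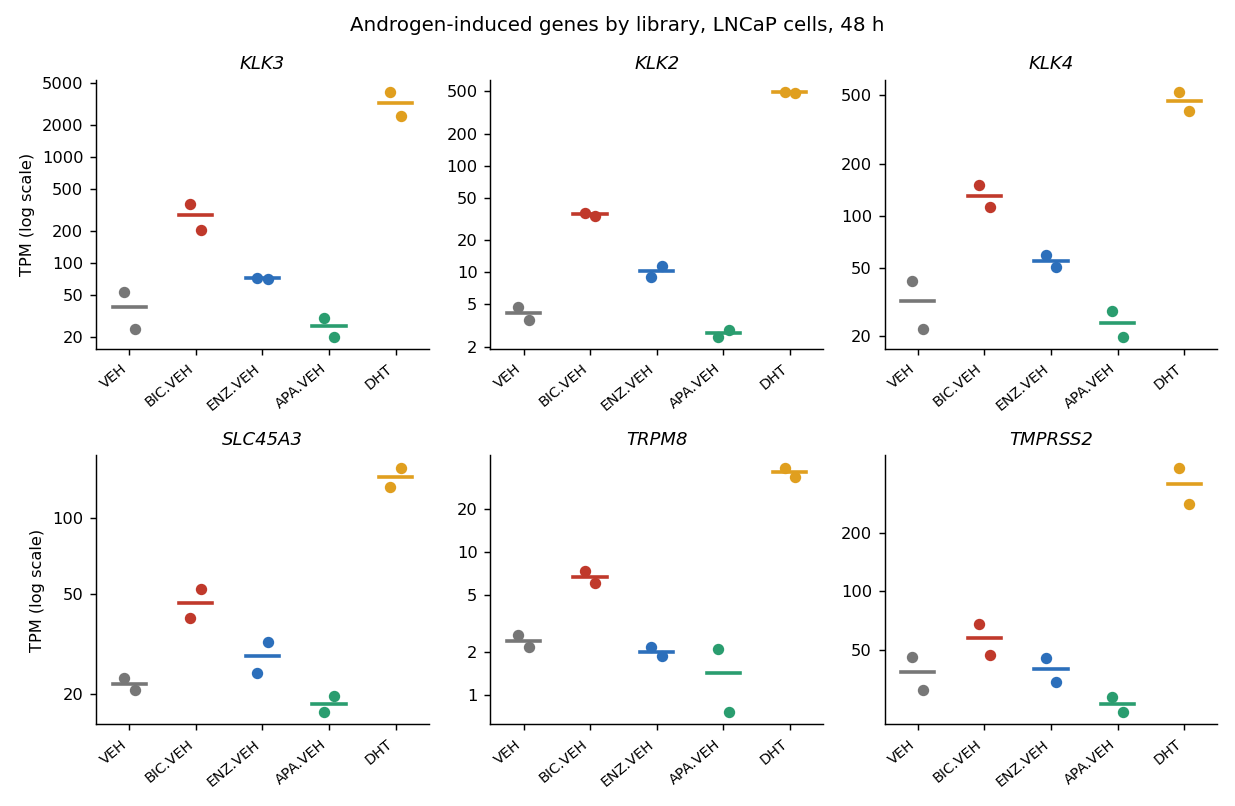
TPM (log axis) of 6 androgen-induced genes in each library without DHT and with DHT alone, where points are libraries and bars are means of 2. In all 6 genes both BIC.VEH libraries lie above both VEH libraries and below both DHT libraries.

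Androgen-induced genes as a group were higher with bicalutamide alone. The list held 40 genes, of which 36 were tested: 28 were higher in both pairs and 1 lower in both, 7 were neither, and 3 passed the test. Over all genes 21.5% were higher in both pairs, against 77.8% of the list. The median difference was 0.28 (0.20 in pair 1 and 0.33 in pair 2) against -0.02 over all genes. The same members had a median of 2.04 with DHT, where 33 of 36 rose, against 10.6% of all genes. BIC.VEH and VEH did not overlap in 17 members that were higher and 1 that was lower, while over all genes 7.51% were higher and 13.9% lower without overlap. Part of the list was written with earlier results of these data known.

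The size of the difference varied widely among these members. TRPM8, a cation channel that senses cold and menthol, stood at 7.35 and 6.12 TPM in BIC.VEH against 2.64 and 2.18 TPM in VEH, and DHT gave 39.1 and 33.8 TPM. Its difference was 1.18 (SE 0.19, limma adjusted p 0.16) and did not pass the test. PMEPA1, a membrane protein that limits TGF-beta signalling, stood at 33.4 and 27.0 TPM against 21.5 and 14.5 TPM, a difference of 0.73 (SE 0.11, limma adjusted p 0.13). Neither gene's groups overlapped. CHRNA2, a nicotinic receptor subunit, was low in both groups, at 1.67 and 1.08 TPM against 0.34 and 0.41 TPM, while it reached 30.6 and 32.6 TPM with DHT. TMPRSS2, the membrane protease that is often fused to ETS factors in prostate cancer, stood at 67.8 and 47.3 TPM against 46.4 and 31.1 TPM, and at 429 and 279 TPM with DHT. Its difference was 0.56 (SE 0.11), 0.54 in pair 1 and 0.59 in pair 2, and it was not called (limma adjusted p 0.37). FKBP5, a co-chaperone of steroid receptors, stood at 13.8 and 16.9 TPM against 12.0 and 13.5 TPM, a difference of 0.25 (SE 0.12), while DHT raised it by 2.68. ACSL3 (0.07), STEAP4 (0.00), ORM1 (0.05) and NDRG1 (-0.04) differed little from VEH, although DHT raised each of them by 1.22 to 3.38. STEAP4 and ORM1 were at most 0.03 and 0.15 TPM in BIC.VEH and VEH, where the log2(TPM + 1) scale can show little difference. SLC45A3 and FKBP5, which changed alike with DHT (2.67 and 2.68), thus differed from VEH by 1.02 and 0.25 with bicalutamide.

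On the linear TPM scale, bicalutamide gave a small part of the increase seen with DHT. Among the 31 androgen-induced members that DHT raised at least 2-fold, the increase over VEH was a median of 6.35% of that with DHT, averaged over the pairs. It ran from -1.91% for NDRG1 to 33.6% for C1orf116, and was below 10% in 24 members and above 20% in 2. KLK3 reached 7.55% ± 0.03, KLK2 6.35% ± 0.11, KLK4 22.9% ± 0.57 and SLC45A3 18.9% ± 5.30 (SD, n = 2 pairs). Both increases were taken from the same VEH libraries.

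**Figure D2:**
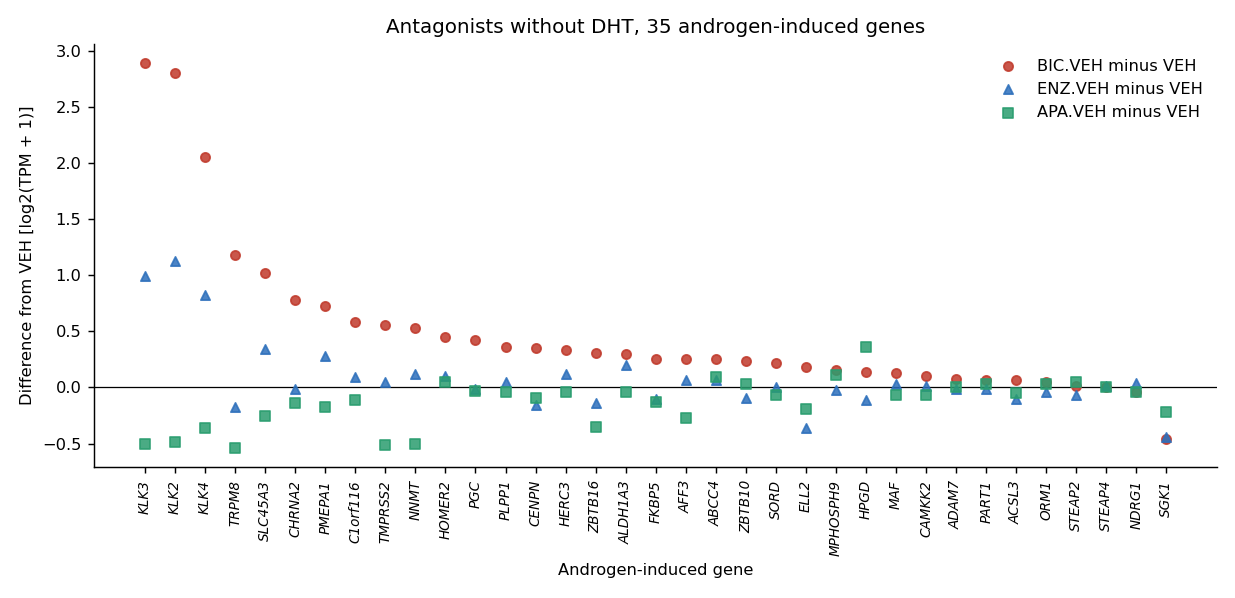
Difference from VEH [log2(TPM + 1)] of 35 of the 36 androgen-induced genes for each antagonist without DHT, ordered by the difference with bicalutamide. Circles (BIC) lie above 0 for most genes, KLK3, KLK2 and KLK4 being highest, where triangles (ENZ) lie at 0.99, 1.13 and 0.82 and squares (APA) at -0.50, -0.49 and -0.36. Medians over the 36 genes are 0.28 for BIC, 0.01 for ENZ and -0.07 for APA.

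A wider set of androgen-dependent genes was taken from libraries that play no part in the comparison: those at least 2-fold apart, and called, between DHT and the mean of ENZ.DHT and APA.DHT. That contrast called 35.6% of genes at any size, and 516 genes (3.10%) were at least 2-fold higher and 381 (2.29%) at least 2-fold lower. Of the 516, 356 (69.0%) were higher in both pairs with bicalutamide, against 21.5% of all genes. Of the 381, 238 (62.5%) were lower in both pairs, against 33.4% of all genes. The medians were small, 0.18 in the former (0.16 and 0.22 in pairs 1 and 2) and -0.18 in the latter (-0.19 and -0.16). The former had medians of 1.26 with DHT, -0.09 with enzalutamide and -0.11 with apalutamide. The latter had medians of -1.35, 0.06 and 0.03. The difference was larger where the androgen contrast was larger. The 454 genes with a contrast of 1 to 2 had a median of 0.17, the 53 with 2 to 3 a median of 0.35 and the 9 above 3 a median of 0.53. Among genes lower with DHT the steps were flat, at -0.18 (356 genes), -0.20 (22 genes) and -0.21 (3 genes). Across all 16636 genes the Pearson correlation of the difference with bicalutamide and this contrast was 0.258, against -0.139 for enzalutamide and -0.0176 for apalutamide. The contrast subtracts ENZ.DHT and APA.DHT, so effects of these drugs that do not depend on DHT enter it with a minus sign. This can shift their correlations and medians here away from the direction with DHT. Their values are therefore not a like comparison with those of bicalutamide. Genes are not independent replicates, and each value comes from the same few libraries.

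**Figure D3:**
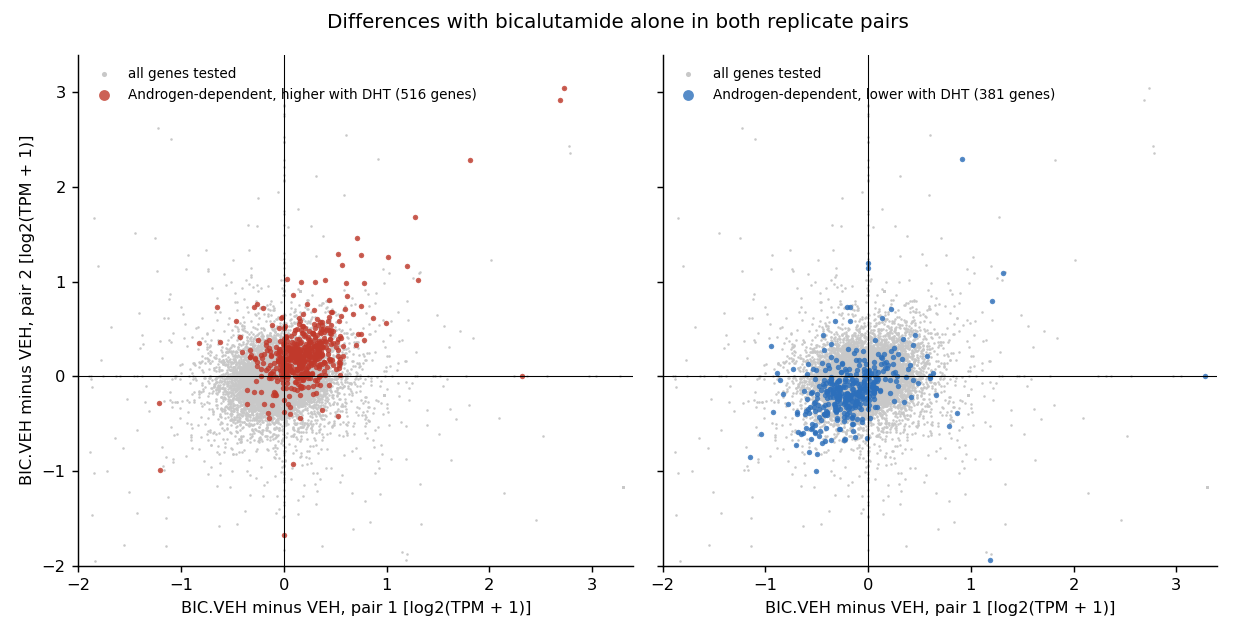
Difference between BIC.VEH and VEH [log2(TPM + 1)] in pair 1 (horizontal) and pair 2 (vertical), for all genes tested (grey) and genes higher (left, red) or lower (right, blue) with DHT than with DHT plus enzalutamide or apalutamide. Most red points fall in the upper right quadrant and most blue points in the lower left, with medians of 0.18 and -0.18. The axes leave out 68 genes with larger differences, 1 of them red.

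Of all genes tested, 63 (0.379%) had a mean of at least 5 TPM in either group and differed by at least 0.5 in both pairs, 36 higher and 27 lower. Which of these moved as with DHT was read from DHT against VEH, with the caution that both comparisons use the same VEH libraries. DHT raised 19 of the 36, against 10.6% of all genes, lowered none, and 17 were not called. It lowered 16 of the 27, against 16.8% of all genes, raised none, and 11 were not called. Against DHT relative to ENZ.DHT and APA.DHT, which shares no library with the comparison, 29 of the 63 were called in the same direction, 4 in the opposite and 30 not at all. That contrast called 35.6% of all genes, counted in either direction. The shares over all genes in this paragraph were taken without the limit of 5 TPM, so they are not matched to the 63.

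The genes that were higher as with DHT went beyond the named androgen targets. C19orf48 stood at 115.9 and 149 TPM in BIC.VEH, against 56.8 and 61.8 TPM in VEH, and DHT brought it to 386 and 481 TPM. EAF2, an androgen-responsive elongation factor partner, stood at 13.2 and 11.5 TPM against 4.75 and 5.17 TPM, and at 38.0 and 42.6 TPM with DHT. KCNN2, a calcium-activated potassium channel, stood at 35.5 and 42.7 TPM against 22.9 and 21.1 TPM, and at 94.1 and 84.5 TPM with DHT. In each the groups did not overlap and the level with bicalutamide lay between the others. ARG2, the mitochondrial arginase, stood near its level with DHT: 72.6 and 132 TPM with bicalutamide, 41.4 and 69.3 TPM in VEH, and DHT gave 97.1 and 149 TPM. Its difference from VEH was 0.86 (SE 0.14, limma adjusted p 0.19), and that from DHT was -0.30 and not called (limma adjusted p 0.18).

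Of the 16 genes that were lower as with DHT, 2 were listed at 0 in both BIC.VEH libraries. SNORA78, a small nucleolar RNA, stood at 9.62 and 6.95 TPM in VEH and was listed at 0 in DHT, ENZ.VEH and APA.VEH as well, and AC106873.2 stood at 7.51 and 3.24 TPM in VEH. The other 14 were above 0 in all 4 libraries, among them the next 5. DEGS2, a sphingolipid desaturase, stood at 4.99 and 4.24 TPM in BIC.VEH, 12.3 and 8.44 TPM in VEH, and DHT gave 1.23 and 1.80 TPM. AOC1, a diamine oxidase, stood at 14.9 and 5.30 TPM against 24.9 and 9.38 TPM, and at 1.75 and 0.61 TPM with DHT. GADD45G, a growth arrest gene, stood at 25.2 and 15.0 TPM against 40.3 and 23.3 TPM, ITPR1, a calcium release channel, at 18.1 and 14.7 TPM against 28.5 and 22.6 TPM, and COL5A2, a collagen chain, at 8.77 and 12.6 TPM against 13.4 and 20.5 TPM. Their differences were -1.0, -0.71, -0.63, -0.61 and -0.61, and none was called with bicalutamide. With DHT these 5 fell, by 1.60 to 2.96 on the log2 scale.

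Of the 28 genes not called with DHT, 10 were listed at 0 in at least 1 of the 4 libraries and 6 carry symbols of small RNAs. RNY1P16, a Y RNA pseudogene, stood at 28.7 and 20.7 TPM in BIC.VEH and was listed at 0 in VEH and DHT, but it was also at 99.1 TPM in ENZ.VEH replicate 1. Among protein-coding genes, PTGFR, the prostaglandin F receptor, stood at 16.2 and 27.4 TPM in BIC.VEH against 10.4 and 16.0 TPM in VEH, and DHT gave 9.67 and 17.0 TPM. Its difference was 0.67 (SE 0.12) and that with DHT -0.01. ADRA2A, an adrenergic receptor, stood at 13.5 and 24.8 TPM against 8.61 and 14.7 TPM, and at 6.80 and 15.5 TPM with DHT, so its groups overlapped although both pairs differed by over 0.5. Neither receptor was called against VEH (limma adjusted p 0.23 and 0.49). Both stood higher on average with bicalutamide than with DHT. They were picked for differing from VEH with bicalutamide and little with DHT, so a test against DHT on these libraries adds no support. GPC5-AS1, an antisense transcript, stood at 9.77 and 6.15 TPM against 3.33 and 2.36 TPM and at 2.51 and 1.31 TPM with DHT. Its difference with bicalutamide was 1.20 (SE 0.27) and was not called (limma adjusted p 0.49). It was one of the genes called in the opposite direction by the contrast of DHT with ENZ.DHT and APA.DHT (-1.87), as were PTGFR, ADRA2A and EIF5A2. Against VEH, EIF5A2 was lower with bicalutamide (-0.63) and also with DHT (-0.42, limma adjusted p 0.056). Its opposite call (0.46) thus holds only relative to ENZ.DHT and APA.DHT.

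Among the genes that were lower with bicalutamide, above 0 in all 4 libraries and not called with DHT, XAGE1B, a cancer-testis antigen, differed most. It stood at 0.25 and 1.09 TPM in BIC.VEH against 6.85 and 10.5 TPM in VEH, and DHT gave 10.3 and 7.29 TPM. The difference of BIC.VEH from VEH was -2.55 (SE 0.62) and missed the threshold (limma adjusted p 0.60). Its near-identical copy XAGE1A differed by 0.13, and XAGE1B was also at 0.70 TPM in APA.VEH replicate 1 and 11.1 TPM in replicate 2, so that the division of reads between copies is uncertain. SLC7A11, the cystine transporter, stood at 27.4 and 15.7 TPM against 15.0 and 10.4 TPM, and at 40.2 and 12.6 TPM in ENZ.VEH. DHT gave 18.8 and 19.5 TPM. Its difference was 0.69 with bicalutamide and 0.58 with DHT, and neither was called.

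**Figure D4:**
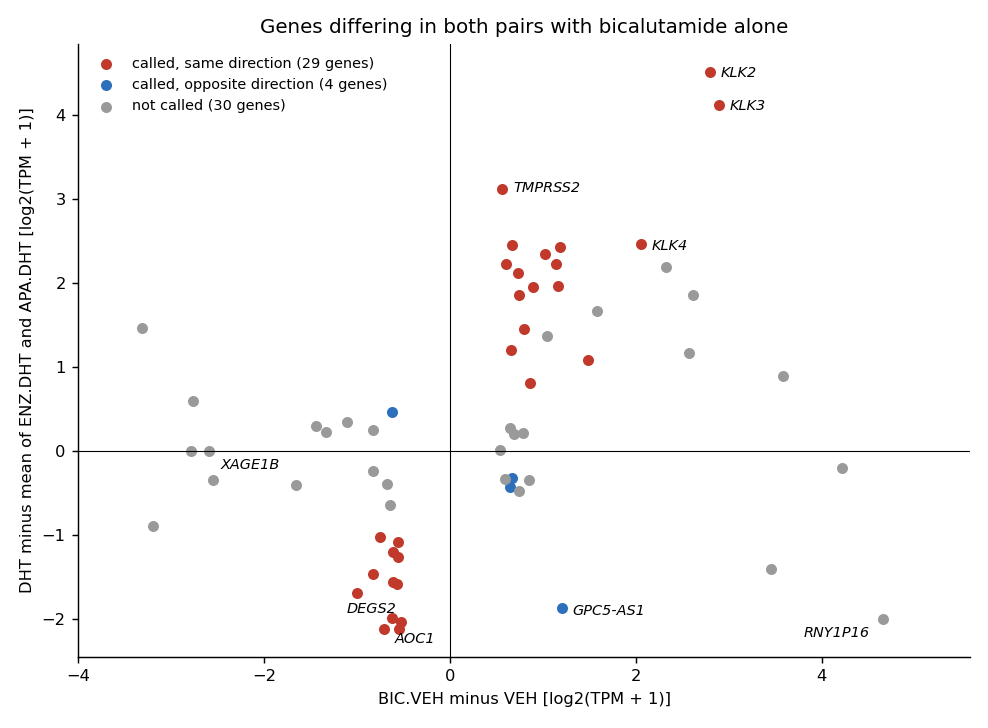
The 63 genes that differed by at least 0.5 in both pairs, with the difference between BIC.VEH and VEH (horizontal) and that between DHT and the mean of ENZ.DHT and APA.DHT (vertical), both as log2(TPM + 1). The 29 red points were called in the same direction, with KLK2 and KLK3 at upper right and DEGS2 and AOC1 at lower left, 4 blue points in the opposite direction, and 30 grey points were not called.

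Bicalutamide was compared with the other antagonists at the same dose and time, without DHT. The androgen-induced list had a median difference from VEH of 0.28 with bicalutamide, 0.01 with enzalutamide and -0.07 with apalutamide. Against VEH, enzalutamide called 0 genes in limma and apalutamide 2 (0.012%). With enzalutamide 483 genes (2.90%) had an unadjusted p below 0.05, again fewer than such a cut passes where no gene differs. Against the mean of ENZ.VEH and APA.VEH, BIC.VEH differed in 14 genes (0.0842% of those tested), 13 higher and 1 lower. Most of these calls rest on the fit: 2 genes were called without the replicate block, 2 in a fit limited to these groups, 3 without BIC.VEH replicate 1 and 1 without BIC.VEH replicate 2. Of the 13, 7 were androgen-induced members (KLK3, KLK4, KLK2, SLC45A3, TRPM8, TMPRSS2 and PMEPA1), a list that held 36 of the 16636 genes tested. DHT raised 12 of the 13, against 10.6% of all genes. KLK3 was higher than in the other antagonists by 2.65 (SE 0.28), KLK2 by 2.48 (SE 0.36), KLK4 by 1.82 (SE 0.21), TRPM8 by 1.54 (SE 0.16) and SLC45A3 by 0.98 (SE 0.11), with limma adjusted p-values of 0.0062, 0.035, 0.007, 0.0062 and 0.0062. ELOVL5, a fatty acid elongase, was higher by 0.53 (SE 0.06, limma adjusted p 0.0097), with 158 and 133 TPM against 107 and 96.5 TPM in ENZ.VEH and 103 and 95.5 TPM in APA.VEH. The gene that was lower was RNU5E-1, a small RNA listed at 0 in all libraries of BIC.VEH, VEH and ENZ.VEH and at 8.68 and 11.9 TPM in APA.VEH.

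Bicalutamide was also set against each compound with a thiohydantoin core on its own. Over these 2 pairs of compounds, BIC.VEH differed from APA.VEH in 14 genes (0.0842%) and from ENZ.VEH in 1 (0.00601%), ARHGEF26, with p-values adjusted over genes within a pair. With adjustment over both pairs together the counts were 14 and 2 (ARHGEF26 and TRPM8). For KLK3 the difference was 3.39 against apalutamide (95% interval 2.68 to 4.11, limma adjusted p 0.003) and 1.90 against enzalutamide (1.18 to 2.61, limma adjusted p 0.27). For KLK4 it was 2.41 (1.88 to 2.94) and 1.23 (0.70 to 1.76), and for TMPRSS2 1.08 (0.83 to 1.32) and 0.51 (0.27 to 0.76). The intervals against enzalutamide are per gene and are not adjusted over genes, and they do not show that the drugs acted alike. In ENZ.VEH, KLK3 was at 72.9 and 71.5 TPM, KLK2 at 9.09 and 11.6 TPM and KLK4 at 59.2 and 50.4 TPM, which lay above both VEH libraries in each. Whether enzalutamide and apalutamide differ from each other was not tested.

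ARHGEF26, a guanine nucleotide exchange factor for small GTPases, was called against each of the other antagonists. It stood at 87.0 and 75.8 TPM in BIC.VEH, 65.1 and 51.1 TPM in VEH, 99.5 and 92.7 TPM in DHT, 38.7 and 37.7 TPM in ENZ.VEH and 32.7 and 27.9 TPM in APA.VEH. No library of the other antagonists reached the level of VEH, and none of BIC.VEH fell to it. BIC.VEH was higher than ENZ.VEH by 1.07 (SE 0.09) and than APA.VEH by 1.40 (SE 0.09), with limma adjusted p-values of 0.0028 and 9.2e-05. With bicalutamide its difference from VEH was 0.49 and not called (limma adjusted p 0.30), and that from DHT was -0.24 (limma adjusted p 0.084). Among the antagonists without DHT, only apalutamide was called against VEH for this gene (-0.91, limma adjusted p 0.0068). With enzalutamide the difference was -0.58 and not called (limma adjusted p 0.43). KCNN2 stood at 18.4 and 22.9 TPM in ENZ.VEH and 14.3 and 18.99 TPM in APA.VEH, and BIC.VEH was higher by 1.04 (SE 0.12, limma adjusted p 0.0062). GPR158, an orphan receptor (0.75, SE 0.11), and the noncoding transcript AL357139.2 (0.79, SE 0.11) were also called.

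Adding DHT to bicalutamide changed no gene past the test in limma. At an unadjusted p below 0.05 there were 768 genes (4.62%), fewer than such a cut passes where no gene differs. KLK3 was higher in BIC.DHT than in BIC.VEH by 1.17 (SE 0.32, limma adjusted p 0.94) and TRPM8 by 1.04 (limma adjusted p 0.65).

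Androgen-repressed genes were more often lower than higher, with a median that depended on single libraries. Of 27 tested, 16 were lower in both pairs (59.3%, against 33.4% of all genes) and 7 higher in both, with a median of -0.13 and no call. The median was -0.03 without BIC.VEH replicate 2 and -0.00 without VEH replicate 1. DHT called 18 of the 27 lower and 6 higher, against 16.8% lower and 10.6% higher over all genes. PLA2G2A, a secreted phospholipase and the member with the largest fall with DHT, stood at 411 and 244 TPM in BIC.VEH, 448 and 301 TPM in VEH, and DHT gave 23.1 and 12.3 TPM. IFI27L2 stood at 31.2 and 20.5 TPM against 44.0 and 27.9 TPM, and at 3.89 and 0.97 TPM with DHT. UGT2B15, which inactivates androgens by glucuronidation, stood at 74.6 and 150 TPM against 114 and 193 TPM, and at 15.7 and 34.3 TPM with DHT. In these genes BIC.VEH and VEH overlapped, since the replicates were further apart than the treatments on the log2 scale. The 6 members that DHT raised in these cells, although they are on this list, were UGT2B28 (2.37), TMEFF2 (1.65), UGT2B11 (1.38), GRIN3A (1.36), BMPR1B (1.0) and LIFR (0.44). With bicalutamide UGT2B11 was lower in both pairs (-0.36 and -0.14), LIFR was neither, and the other 4 were higher in both. TMEFF2 and GRIN3A stood higher with bicalutamide, TMEFF2 at 16.7 and 27.7 TPM against 12.4 and 13.2 TPM and GRIN3A at 6.0 and 3.49 TPM against 3.71 and 1.77 TPM.

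More cell cycle genes were higher than lower in both pairs, by small amounts, and none was called. Of 51 S phase genes, 31 were higher in both pairs (60.8%, against 21.5% of all genes), 1 was lower and 19 were neither, with a median of 0.12 against 1.00 with DHT. Of 53 G2/M genes, 38 were higher in both (71.7%), 3 were lower and 12 were neither, with a median of 0.21 against 1.21 with DHT. With enzalutamide the medians were -0.22 and -0.36, and with apalutamide -0.15 and -0.19. MKI67, a marker of cycling cells, stood at 2.91 and 10.8 TPM in BIC.VEH, 2.18 and 9.28 TPM in VEH, and DHT gave 11.7 and 24.4 TPM. CDC45, a part of the replicative helicase, stood at 3.30 and 10.1 TPM against 2.33 and 7.54 TPM, TTK, a spindle checkpoint kinase, at 1.3 and 5.93 TPM against 0.72 and 3.85 TPM, and AURKB, a mitotic kinase, at 5.48 and 15.4 TPM against 4.80 and 9.88 TPM. In all of them replicate 2 exceeded replicate 1 in each group by more than the treatments differed on the log2 scale. The groups overlapped, and only the pairs show the difference.

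Sterol and lipid genes had a median of 0.04, against 0.89 with DHT, where 26 of 32 rose (10.6% of all genes did). With bicalutamide 14 were higher in both pairs (43.8%, against 21.5% of all genes) and 5 lower, and none was called. ELOVL5 stood at 158 and 133 TPM against 115 and 101 TPM in VEH, and DHT gave 690 and 636 TPM. Its difference with bicalutamide was 0.42 (SE 0.07, limma adjusted p 0.21), without overlap. The cholesterol carrier STARD4 stood at 20.4 and 14.1 TPM against 23.1 and 21.3 TPM.

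The remaining lists gave no call. Over all genes, 21.5% were higher and 33.4% lower in both pairs. The 13 xenobiotic genes, chosen because the drugs could induce their own metabolism, had a median of -0.02, 3 being higher and 5 lower in both pairs. The 28 genes of the ATF4 and endoplasmic reticulum stress response had a median of 0.07, with 17 higher in both pairs (60.7%) and 3 lower. Their median was 0.14 with enzalutamide and -0.01 with apalutamide. CHAC1 stood at 8.05 and 5.07 TPM against 5.38 and 3.74 TPM and ATF3 at 25.4 and 20.3 TPM against 20.7 and 18.4 TPM. Steroid receptors and glucocorticoid targets (24 genes) had a median of -0.02, with 6 higher and 10 lower. SGK1 was at 5.01 and 3.04 TPM against 5.10 and 6.51 TPM, and ZBTB16 at 17.3 and 12.5 TPM against 14.9 and 9.02 TPM. Androgen metabolism (12 genes) had a median of 0.08, with 6 higher and 3 lower. RDH11, a retinal reductase, was at 343 and 381 TPM against 277 and 296 TPM without overlap, and AKR1C3, which makes testosterone from androstenedione, at 7.40 and 5.47 TPM against 8.32 and 8.13 TPM. Of the neuroendocrine and neuronal list only 6 of 20 were expressed enough to be tested, with a median of -0.09, none higher and 3 lower in both pairs. ENO2 was at 56.7 and 50.1 TPM against 62.9 and 55.1 TPM, while DHT lowered it to 16.1 and 15.6 TPM.

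**Figure D5:**
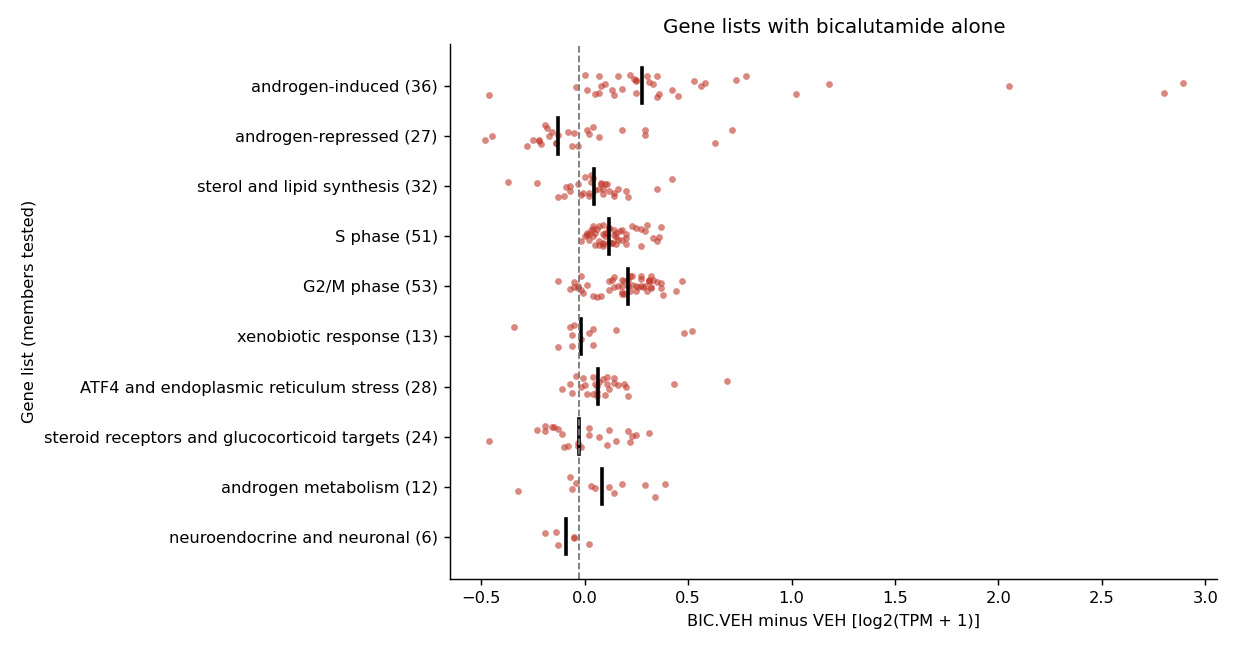
Difference between BIC.VEH and VEH [log2(TPM + 1)] of each tested member of 10 gene lists, where points are genes, black bars are medians and the dashed line is the median of all genes (-0.02). The androgen-induced list has the highest median (0.28), followed by G2/M phase (0.21) and S phase (0.12), and the androgen-repressed list the lowest (-0.13).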

How the data were processed

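RNA sequencing of 16 LNCaP libraries in 8 groups of 2 was used. Per the study's methods, the authors made stranded, poly(A)-selected libraries, checked reads with FastQC, trimmed them with Trim Galore, aligned them with STAR to GRCh38 (Ensembl release 99, Gencode release 33) and quantified genes with RSEM. The submitters' processing notes give FastQC 0.11.9, Trim Galore 0.6.5, STAR 2.7.2b and RSEM 1.3.3. The deposited values are TPM per gene symbol and library, with replicates kept apart. TPM keeps no read depth, and the labels state about 40 M read pairs of 125 bp per library. Only the spread between replicates therefore gives the precision. RSEM divides reads among close copies by a model, and whether counting used strand is not given in the sources used here.

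The table held 60642 symbols, 26439 of them at 0 in every library. The 16636 genes with 1 TPM or more in any 2 libraries were transformed as log2(TPM + 1). A limma 3.58.1 trend model in R 4.3.3 held 8 group means and the replicate number as a block, over all 16 libraries. Each contrast was adjusted by Benjamini-Hochberg with a threshold of 0.05. The pairing comes from the numbers in the titles. Deviations of same-numbered libraries from their group means correlated above 0.1 in 28 of 28 pairs of groups (0.204 to 0.635, and 0.503 for BIC.VEH with VEH). On simulated data with 50 changed genes per size, this comparison recovered 13 at a log2 change of 0.5, 38 at 1, 49 at 2 and 48 at 3. There were 13 false calls among the unchanged genes. All sizes were planted in the same simulated data, which eases the adjustment, whereas the real comparison has few calls. The recovered counts can therefore overstate what the real comparison detects.

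The comparison and the 10 gene lists, which came from general knowledge, were chosen with earlier results of these data known. Genes were named by rule: called genes, the 8 highest and 8 lowest differences above 5 TPM without overlap, androgen-induced members that differed by at least 0.5 in both pairs, the 8 largest not changed with DHT, and the 3 largest of each other list. Of the 8 lowest and of the 8 highest, 6 each had a library at 0, and most of these are given as counts. Genes outside the rule (ARHGEF26, KCNN2, ARG2, EAF2, C19orf48, KLKP1, GPC5-AS1, GPR158, AL357139.2, EIF5A2, RNU5E-1, XAGE1A, DEGS2, AOC1, GADD45G, ITPR1, COL5A2, MKI67, PLA2G2A, IFI27L2 and androgen-induced members with small differences) were chosen after their values were seen. Results for 1 called gene and 1 list member are not reported here. Gene positions and promoters were taken from RefSeq (GRCh38.p14), with promoters for 10584 of the tested genes. Alternatives were 9 planned and 2 added after the data were seen, which left out DHT replicate 1 or ENZ.DHT and APA.DHT.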

Additional observations from a re-analysis of the deposited data

Results flagged for a closer look

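Without DHT, the effect of bicalutamide differed from the mean effect of enzalutamide and apalutamide in 14 genes by the test of the difference itself in limma, 13 higher with bicalutamide and 1 lower. The count was 2 without the replicate block, 2 in a fit limited to the groups compared, and between 1 and 3 when a BIC.VEH replicate was left out. All 14 genes were called against APA.VEH alone, and 1 of them, ARHGEF26, against ENZ.VEH alone. KLK3 stood at 358 and 206 TPM in BIC.VEH, 72.9 and 71.5 TPM in ENZ.VEH and 30.4 and 20.4 TPM in APA.VEH. The gene that was lower, RNU5E-1, was above 0 in APA.VEH and in no library of BIC.VEH, VEH or ENZ.VEH.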

How the results depend on the processing

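TPM gives no depth, and groups of 2 limit every test. Counts of called genes moved with the fit. For BIC.VEH against VEH the count of 3 became 0 without the block, 0 after median-ratio scaling, 0 in a fit limited to these libraries, 6 with no filter on low values, 0 to 2 when 1 replicate of BIC.VEH or VEH was left out, 0 without DHT replicate 1 and 12 with ENZ.DHT and APA.DHT left out. The cause was not tested. With the replicate block removed, DHT against VEH called 1709 genes, DHT against the mean of ENZ.DHT and APA.DHT 2468, BIC.VEH against the mean of ENZ.VEH and APA.VEH 2, BIC.VEH against DHT 1090 and APA.VEH against VEH 1. A fit limited to the groups compared gave 3126 (DHT against the antagonists with DHT), 2 (BIC.VEH against the other antagonists), 2083 (BIC.VEH against DHT) and 17 (APA.VEH against VEH). With no filter the calls were 22 for BIC.VEH against the other antagonists, 8 for ENZ.VEH and 9 for APA.VEH, and APA.VEH gave 1 with a pseudocount of 0.1 and 1 after median-ratio scaling. Without DHT replicate 1, DHT against VEH called 2890 genes and DHT against the antagonists with DHT 3355. Leaving out 1 replicate gave 2581 to 2696 calls for DHT against VEH, 1 to 3 for BIC.VEH against the other antagonists, 1608 to 1728 for BIC.VEH against DHT and 1 to 5 for APA.VEH.

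The androgen-induced median ran from 0.18 to 0.34, the androgen-repressed from -0.15 to -0.00, sterol and lipid from 0.00 to 0.12 and G2/M from 0.17 to 0.26 over the fits without 1 replicate. The xenobiotic (-0.06 to 0.07) and steroid receptor (-0.10 to 0.03) medians changed sign, and ATF4 ran from 0.00 to 0.14. The androgen-repressed median was -0.07 with no filter and -0.09 after median-ratio scaling, which gave 0.08 for sterol and lipid. Androgen-dependent genes had medians from 0.14 to 0.24 (higher with DHT) and -0.18 to -0.14 (lower), and -0.15 for the latter after median-ratio scaling. A pseudocount of 0.1 put 1 gene of those differing in both pairs opposite to DHT, against 0. Of 693 values of named genes under alternatives, 659 kept direction and side of the threshold, 26 lost it (all for KLK3, KLK4 and SLC45A3), 7 gained it, and AKR1C1 changed sign without VEH replicate 1 (-0.20, against 0.79 without replicate 2).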
